A study of Rattus norvegicus with 5 samples.

Results

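The genes described are 9 that build or maintain the myelin sheath, *Mbp* (ENSRNOG00000016516), *Mog* (ENSRNOG00000000775), *Mag* (ENSRNOG00000021023), *Mobp* (ENSRNOG00000018700), *Cldn11* (ENSRNOG00000010263), *Mal* (ENSRNOG00000015445), *Cnp* (ENSRNOG00000017496), *Ugt8* (ENSRNOG00000009345) and *Opalin* (ENSRNOG00000022386). They were chosen by name from the 32883 genes of the files, and all 9 were found. The series holds single-nucleus RNA sequencing (snRNA-seq) of the ventral tegmental area (VTA) of 5 adult male Sprague-Dawley rats, with 1 library per rat made from punches of both hemispheres combined. All rats carried the same treatment label, saline, while the paper calls them drug-naïve, so there was 1 group and no comparison of conditions. Questions addressed were how much of each transcript oligodendrocyte nuclei held, how much appeared in nuclei of other cell types, and how much was free RNA, that is, cell-free mRNA caught in droplets taken to hold no nucleus.

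Myelin is the spiral of membrane that oligodendrocytes wrap around axons of the central nervous system. Its cytoplasmic faces are zipped together by basic proteins, its lipids include galactosylceramide, and adhesion molecules hold it to the axon and to itself. Oligodendrocytes arise from oligodendrocyte precursor cells, which switch these genes on as they mature. Nuclei are isolated from broken cells, so transcripts of the cytoplasm and of myelin processes can float free, and the mRNA of *Mbp* is known to be carried along oligodendrocyte processes and translated there.

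In this droplet assay each captured molecule carries a unique molecular identifier (UMI) and each droplet a barcode. Libraries held 10193355 to 88576210 UMIs. Barcodes with at least 600 UMIs, 201 to 4999 genes and under 5% mitochondrial UMIs numbered 2733, 18927, 3948, 5204 and 4422 in rats 1 to 5. They were clustered without the 9 genes, clusters were named from other marker genes, and barcodes of 4 clusters that could not be named and marked doublets were set aside. This left 19226 nuclei, of which 9849 (51.2%) were oligodendrocytes, 6109 neurons, 1146 oligodendrocyte precursor cells, 1250 astrocytes, 536 microglia and 336 vascular cells. Of 10 oligodendrocyte markers that are none of the 9 genes, 9 were highest in the oligodendrocytes, *Aspa* being the exception, and every marker of the other 5 types was highest in its own type. These are the markers from which the clusters were named, so this is no independent check of the names. Among 19184 barcode sequences of these nuclei, 42 occurred in more than 1 library.

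Libraries of rats 2 and 3 stood apart. In rat 2, 37436 barcodes had at least 600 UMIs, 18183 of them had 5% or more mitochondrial UMIs, and 11846 of those that passed the filters fell into unnamed clusters. The 2 largest unnamed clusters, made mostly of barcodes of rat 2, had 723 and 675 UMIs per barcode (median) and 149 and 169 UMIs of the 9 genes per 10000 UMIs. In rat 3 the oligodendrocytes held 797 UMIs each at the median, where those of other rats held 2566 to 5846, neurons were 65.4% of nuclei against 15.9% to 26.5%, and 0 microglia and 1 vascular nucleus were found. In rat 1, 1972 of 2733 barcodes were unnamed.

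Free RNA was read from droplets of 1 to 99 UMIs, which held 921088 to 2919595 UMIs per rat. In rats 2, 4 and 5, 93.8% to 94.9% of these UMIs came from droplets of 1 to 9 UMIs, against 31.1% in rat 1 and 16.3% in rat 3. Larger droplets below the minimum for nuclei held far more UMIs in rats 2, 4 and 5, with 20643239 in droplets of at least 300 and under 600 UMIs in rat 2 and 14441517 and 14996445 in droplets of at least 100 and under 300 UMIs in rats 4 and 5. Which of these droplets were empty is not known, so free RNA was also read from a range of ranks by UMI total in each library, called ranked barcodes below. In rats 1 to 5 the range began at barcodes of 22, 558, 22, 218 and 260 UMIs and ended at barcodes of 13, 6, 2, 3 and 35 UMIs. The share of mitochondrial UMIs was 3.996% to 9.88% in free RNA and 0.257% to 1.16% in the nuclei kept.

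Promoter sequences are shown for *Mobp*, which held the word CTTTGT most often, and for the 4 genes that held the word CTGGCAC, as a view of the DNA ahead of genes that are read together in the same nuclei, and were chosen after the matches had been seen. Of the 9 genes, 8 had an entry in RefSeq's promoter sequences, build GRCr8, and each sequence covers the 250 bases before the annotated start. *Mobp* (chr8:128746982-128747231, plus strand) is printed with CTTTGT in capitals, the core letters that Sox factors such as the oligodendrocyte regulator Sox10 bind. *Mag* (chr1:95291045-95291294, minus strand), *Mal* (chr3:135341424-135341673, minus strand), *Cnp* (chr10:86011254-86011503, plus strand) and *Opalin* (chr1:249858191-249858440, minus strand) are printed with CTGGCAC in capitals, a form of the word bound by the myelin regulator Myrf. Matches on either strand are in capitals.
Mobp: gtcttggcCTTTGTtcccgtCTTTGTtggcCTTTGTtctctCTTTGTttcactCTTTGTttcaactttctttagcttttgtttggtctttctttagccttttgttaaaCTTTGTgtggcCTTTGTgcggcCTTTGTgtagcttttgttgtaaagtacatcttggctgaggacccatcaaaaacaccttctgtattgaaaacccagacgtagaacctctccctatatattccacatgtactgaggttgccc
Mag: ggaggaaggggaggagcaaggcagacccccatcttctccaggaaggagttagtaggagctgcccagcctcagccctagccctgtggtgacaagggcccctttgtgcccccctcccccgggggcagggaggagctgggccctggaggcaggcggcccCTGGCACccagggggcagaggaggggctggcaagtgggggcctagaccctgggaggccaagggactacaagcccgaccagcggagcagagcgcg
Mal: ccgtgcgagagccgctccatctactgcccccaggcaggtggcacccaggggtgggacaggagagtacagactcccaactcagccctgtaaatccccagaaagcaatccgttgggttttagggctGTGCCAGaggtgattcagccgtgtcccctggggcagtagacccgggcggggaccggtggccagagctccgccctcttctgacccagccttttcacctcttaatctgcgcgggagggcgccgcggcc
Cnp: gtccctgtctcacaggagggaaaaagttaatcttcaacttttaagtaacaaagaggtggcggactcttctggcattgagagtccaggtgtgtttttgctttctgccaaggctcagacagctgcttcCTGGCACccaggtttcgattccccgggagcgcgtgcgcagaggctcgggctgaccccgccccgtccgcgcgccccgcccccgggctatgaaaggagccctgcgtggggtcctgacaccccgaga
Opalin: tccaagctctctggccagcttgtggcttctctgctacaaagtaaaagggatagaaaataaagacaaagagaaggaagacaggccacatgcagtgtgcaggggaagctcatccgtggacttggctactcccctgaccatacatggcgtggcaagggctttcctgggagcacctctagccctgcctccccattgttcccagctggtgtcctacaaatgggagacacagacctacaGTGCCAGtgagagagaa
Counted on both strands, CTTTGT stood 8 times in the *Mobp* promoter, 2 times in that of *Opalin*, and once in those of *Mag*, *Cnp* and 1 of 2 *Mbp* promoters. It occurred at least once in 16.3% of 33469 promoters of this length, and 8 was the highest number in any of them, reached by 2. CTGGCAC stood once each in the promoters of *Mag*, *Mal*, *Cnp* and *Opalin* and in 3.78% of all promoters. CAGCTG, an E-box, was in 1 of 2 promoters of *Mbp*, in those of *Cnp* and *Opalin* and in 11.97% of all promoters. These matches describe letters only, and no binding was measured.

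Levels are given below as UMIs of a gene per 10000 UMIs of all genes, summed over the nuclei of a type in each rat. The assay counts molecules from their 3′ ends, without a correction for length, so levels are compared across sources for each gene, and a difference in level or share between genes is not read as a difference in amount. *Mbp* encodes myelin basic protein, which zips the cytoplasmic membrane faces together. In oligodendrocytes its level was 78.6, 85.4, 80.0, 74.4 and 76.0 UMIs per 10000 in rats 1 to 5, a mean of 78.9 ± 4.27 (SD, n = 5), the smallest spread relative to the mean of the 9 genes. *Mobp*, another small basic protein of compact myelin, was at 15.3, 14.9, 8.53, 20.6 and 18.4 UMIs per 10000. Rat 3 was the lowest for *Mobp* by a wide margin, whereas for *Mbp* it lay inside the range of the others.

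Adhesion genes followed the same order of rats only in part. *Mog*, a protein of the outermost myelin surface, was at 18.3, 19.1, 13.8, 23.7 and 25.4 UMIs per 10000 in oligodendrocytes of rats 1 to 5, with rats 4 and 5 highest and rat 3 lowest. *Mag*, the adhesion protein that faces the axon, was at 10.3, 8.76, 5.96, 8.57 and 7.88 UMIs per 10000, with rat 1 highest. *Cldn11*, the claudin of myelin tight junctions, was at 9.63, 8.54, 11.3, 7.15 and 7.51 UMIs per 10000. It was the only one of the 9 genes with its highest level in rat 3.

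*Mal*, a proteolipid of membrane rafts that sorts proteins to myelin, was at 9.08, 6.25, 3.26, 6.62 and 6.59 UMIs per 10000 in oligodendrocytes of rats 1 to 5. *Opalin*, a membrane glycoprotein particular to oligodendrocytes, was at 6.71, 5.49, 1.82, 5.12 and 6.34 UMIs per 10000. Both had their highest level in rat 1 and their lowest in rat 3. *Ugt8*, the enzyme that makes galactosylceramide, was at 9.04, 7.69, 5.27, 6.24 and 6.89 UMIs per 10000, with the same rats at the ends. *Cnp*, the cyclic nucleotide phosphodiesterase that keeps cytoplasmic channels of myelin open, was at 7.15, 8.64, 5.34, 3.46 and 6.22 UMIs per 10000, with rat 4 lowest. Summed over the 9 genes, oligodendrocytes held 164, 165, 135, 156 and 161 UMIs per 10000 (156 ± 12.2, SD, n = 5), and the mean without any 1 rat lay between 154 and 161.

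**Figure D1:**
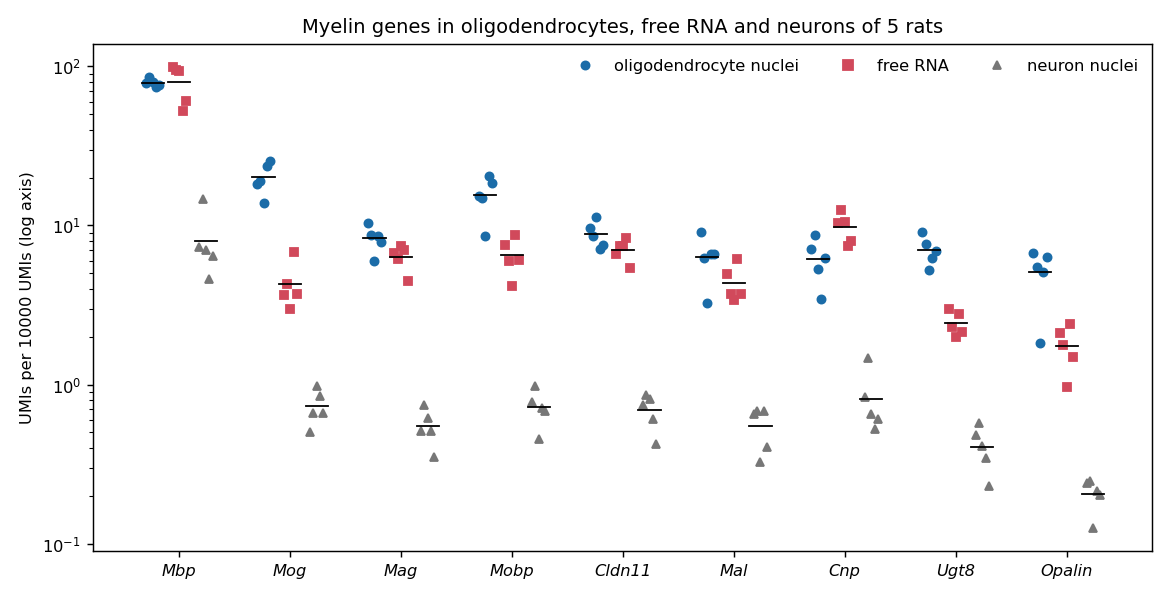
Level of each gene (UMIs per 10000 UMIs, log axis) in oligodendrocytes, neurons and free RNA, 1 point per rat and a black bar for the mean of 5 rats. *Mbp* averaged 78.9 in oligodendrocytes and 80.1 in free RNA, while *Mog* averaged 20.1 and 4.27. Neurons were lowest for every gene, with 7.97 for *Mbp* and 0.730 for *Mog*.

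The share of nuclei with a UMI depends on depth, so it was also taken after each nucleus was thinned to 600 UMIs. *Mbp* was found in 99.6% of oligodendrocytes (mean over 5 rats), and in 98.0% after thinning. In neurons, where the *Mbp* gene also gives golli transcripts that these counts do not separate, it was found in 81.1% of nuclei, and in 32.4% after thinning. Median depths were 797 to 5846 UMIs in oligodendrocytes and 1386 to 9528 in neurons, so the unthinned share in neurons rests on deeper nuclei. *Mog* was found in 90.5% of oligodendrocytes (67.3% thinned) and 23.2% of neurons (4.17% thinned). *Opalin* was found in 59.3% of oligodendrocytes (24.4% thinned) and 10.9% of neurons (1.39% thinned). For the other 6 genes the thinned share in oligodendrocytes ran from 30.1% (*Mal*) to 54.7% (*Mobp*), against 2.27% (*Ugt8*) to 5.57% (*Cnp*) in neurons.

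Every one of the 9 genes was higher in oligodendrocytes than in each of the other 5 cell types. Counts summed per rat and type were tested with edgeR's quasi-likelihood test, with the rat as a block, over 12355 genes, and a gene was called at a Benjamini-Hochberg adjusted p under 0.05. Cell types were told apart by other genes of the same nuclei, so the tests describe how the 9 genes follow those types. Against neurons 32.1% of all genes were called higher and 33.3% lower, and the 9 genes were all higher, with log2 fold changes of 3.14 to 5.02 (median 4.14, largest adjusted p = 1.68e-15, edgeR). *Mog* lay farthest from neurons, and *Cnp* nearest.

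Against oligodendrocyte precursor cells, where 19.6% of genes were higher and 21.7% lower, the 9 genes differed by log2 fold changes of 1.45 (*Cnp*) to 3.54 (*Mog*), with a median of 1.97. *Ugt8* differed by 1.52 there, *Mag* by 1.70, *Mbp* by 1.71, *Mal* by 2.90 and *Opalin* by 2.81. With each nucleus named by its own markers these 5 values were 2.62, 3.80, 3.18, 3.23 and 4.34, so the order of the genes depends on how nuclei were named. The range was 1.76 to 4.15 against astrocytes (21.0% of all genes higher and 22.8% lower), 1.40 to 2.50 against microglia (19.8% and 16.3%) and 1.33 to 4.09 against vascular cells (21.2% and 19.2%). Microglia and vascular cells gave sums in 4 rats, since rat 3 had too few of them. In each of these comparisons the median of all genes was 0.02 to 0.08 on the log2 scale, with library totals as the scale it was -0.10 to -0.36, and with ranked barcodes as the free RNA of the same fit 0.15 to 0.38. All 630 values of these genes under other settings kept their direction and their call, which includes every fit without 1 rat. The sizes did move, and with nuclei named by their own markers *Mog* differed by 5.51 from precursor cells, 4.72 from microglia and 6.31 from vascular cells (log2 fold change). A summed level cannot tell fewer nuclei that hold a transcript from less of it in each.

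Other genes of the myelin pathway, which were not left out of the clustering, were counted from a list of 45. Of the list 42 were tested, and 8, *Fa2h* and *Hapln2* among them, had served to name oligodendrocytes. Of these 42, 41 were higher in oligodendrocytes than in neurons and 0 lower, led by *Anln* (5.30), *Fa2h* (5.17) and *Galnt6* (4.998, log2 fold change). *Fa2h* makes the 2-hydroxy fatty acids of myelin lipids. Against precursor cells 33 were higher and 5 lower. *Anln* (4.09), *Hapln2* (3.91) and *Cntn2* (3.90) were the farthest above precursor cells. *Olig2* (-1.19), the transcription factor of the whole lineage, *Bcas1* (-1.10), a gene of early myelinating cells, and *Nfasc* (-0.98) were lower than in precursor cells. Against astrocytes 39 were higher, and against microglia and vascular cells 40 each, with 0 lower. The list's median log2 fold change was 3.76, 1.63, 2.48, 2.05 and 2.56 in these 5 comparisons. The shares of all genes called in each comparison are given above.

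The genes whose log2 level over the 28 sums of cell types and rats, free RNA left out, was most like the mean of the 9 were *Tubb4a* (Pearson r = 0.964), *Enpp2* (0.962), *Tmem98* (0.947), *Piga* (0.927) and *Lpar1* (0.926). The points share libraries and depth, so these values are a description. *Tubb4a*, a tubulin, was at 12.01 UMIs per 10000 in oligodendrocytes and 13.2 in free RNA (means over rats), whereas *Enpp2*, a secreted lysophospholipase, was at 12.8 in oligodendrocytes and 2.32 in free RNA. These 2 genes, alike across cell types, thus differed in how their free RNA compared with oligodendrocytes.

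In free RNA the 9 genes together made up 144, 139, 132, 102 and 95.7 UMIs per 10000 in rats 1 to 5 (123 ± 22.2, SD, n = 5), not far below oligodendrocytes and far above other nuclei. *Mbp* was at 98.96, 94.9, 93.5, 52.4 and 60.7 UMIs per 10000, above the oligodendrocyte nuclei of the same rat in rats 1 to 3 and below them in rats 4 and 5. In the ranked barcodes the 9 genes together were at 158, 164, 152, 121 and 128 UMIs per 10000, above the droplets of 1 to 99 UMIs in all 5 rats. There *Mbp* was at 78.7 UMIs per 10000 in rat 5, above its oligodendrocytes (76.0), and at 51.7 in rat 4, below them. *Cnp* was at 10.3, 12.4, 10.5, 7.38 and 8.02 UMIs per 10000 in free RNA, above the oligodendrocyte nuclei of the same rat in all 5. *Mog* was at 3.68, 4.26, 2.97, 6.76 and 3.70 UMIs per 10000. No value of *Mog* in free RNA came near the lowest in oligodendrocytes, 13.8. *Mobp* was at 4.16 to 8.74 UMIs per 10000 in free RNA, *Ugt8* at 1.99 to 2.98 and *Opalin* at 0.967 to 2.40, each below the oligodendrocytes of the same rat in all 5. *Mag* (4.45 to 7.37), *Cldn11* (5.44 to 8.33) and *Mal* (3.38 to 6.12 UMIs per 10000) had ranges that overlapped those of oligodendrocytes.

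Against oligodendrocyte nuclei, 46.1% of 12355 genes were higher in free RNA and 31.8% lower, and the median of all genes was 0.36 on the log2 scale. Of the 9 genes 1 was higher and 6 were lower. *Cnp* was higher by a log2 fold change of 0.63 ± 0.15 (SE, adjusted p = 0.000367, edgeR, n = 5). Its call was lost without the rat as a block (adjusted p = 0.101) and with each nucleus named by its own markers (adjusted p = 0.0620, edgeR). *Mog* was farthest below, at -2.37 ± 0.26 (adjusted p = 5.44e-10), followed by *Ugt8* at -1.61 ± 0.20, *Opalin* at -1.59 ± 0.20 and *Mobp* at -1.35 ± 0.23 (largest adjusted p of the 4 = 2.76e-06, edgeR). These 4 genes passed in all 17 settings.

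The remaining genes lay closer to zero. *Mal* was lower in free RNA by -0.60 ± 0.18 (log2, SE, adjusted p = 0.00293, edgeR), a call lost with DESeq2's size factors (-0.37, adjusted p = 0.0511, edgeR) and with DESeq2 (-0.37, adjusted p = 0.0697). *Cldn11* was lower by -0.40 ± 0.18 (adjusted p = 0.0425, edgeR). The call for *Cldn11* was lost without rat 2 (adjusted p = 0.0598, edgeR) or rat 3 (0.0621) and held in 6 of 17 settings. *Mag* was at -0.49 ± 0.24 (adjusted p = 0.0656, edgeR) and passed without rat 3 (-0.70, adjusted p = 0.00451, edgeR). *Mbp* did not pass in any setting, with -0.13 ± 0.23 (adjusted p = 0.607, edgeR) and a range of -0.30 to 0.11. *Cnp* alone lay above the median of all genes in this comparison.

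*Mbp* and *Mobp* both encode basic proteins of compact myelin. *Mbp* averaged 80.1 UMIs per 10000 in free RNA and 78.9 in oligodendrocyte nuclei, whereas *Mobp* averaged 6.47 and 15.5 UMIs per 10000. For most of the 9 genes the level depended on the droplets chosen. In droplets of at least 100 and under 300 UMIs, *Mal* was at 7.81, 6.36, 2.82, 14.8 and 8.25 UMIs per 10000 in rats 1 to 5, against 4.64, 3.63, 3.28, 5.61 and 3.54 in droplets of 1 to 9 UMIs. It was higher in the larger droplets in rats 1, 2, 4 and 5. *Ugt8* was at 3.59, 3.602, 2.75, 5.11 and 3.55 UMIs per 10000 in the larger droplets and at 2.71, 2.17, 1.86, 2.65 and 2.16 in those of 1 to 9 UMIs, higher in all 5 rats. *Cldn11* and *Cnp* were also higher in the larger droplets in all 5 rats. In rat 4 they stood at 13.0 against 8.19 (*Cldn11*) and 12.3 against 7.15 UMIs per 10000 (*Cnp*). *Mbp* and *Opalin* were higher there in all rats but rat 1, *Mag* in all but rat 2 and *Mobp* in all but rat 4. *Mog* was higher there only in rat 3. With free RNA taken from the ranked barcodes, the log2 fold change of *Mal* against oligodendrocytes was 0.0017 (adjusted p = 0.995, edgeR).

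Free RNA was also set against all barcodes that passed the filters in the same rat, in which 28.9% of 13092 genes were higher and 29.7% lower in free RNA. These barcodes include the unnamed clusters, which are most barcodes of rats 1 and 2 and whose 2 largest held 149 and 169 UMIs of the 9 genes per 10000, beside 139 in the free RNA of rat 2. In that comparison 4 of the 9 genes were higher and 1 was lower. With named clusters alone and marked doublets left out, 5 were higher, *Mal* among them (0.83, adjusted p = 0.0244, edgeR), and 1 lower. *Cnp* was higher by a log2 fold change of 1.69 ± 0.33 (SE, adjusted p = 0.00195, edgeR, n = 5) and *Cldn11* by 0.97 ± 0.26 (adjusted p = 0.00996, edgeR), both in all 15 settings. *Mbp* at 1.11 ± 0.40 (adjusted p = 0.0347, edgeR) and *Mag* at 0.91 ± 0.33 (adjusted p = 0.0376, edgeR) were also called higher. Both calls were lost without rat 2, rat 4 or rat 5, with adjusted p of 0.0714, 0.0554 and 0.111 for *Mbp* and 0.0722, 0.0555 and 0.0885 for *Mag* (edgeR). *Mog* was lower by -0.65 ± 0.26 (adjusted p = 0.0499, edgeR), and its call was lost without rat 1, 2, 4 or 5. *Mal* (0.72 ± 0.33, adjusted p = 0.0852, edgeR), *Mobp* (0.17), *Opalin* (0.02) and *Ugt8* (-0.14, log2 fold change) did not pass. *Mal* passed without rat 1 (0.96, adjusted p = 0.0354, edgeR).

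**Figure D2:**
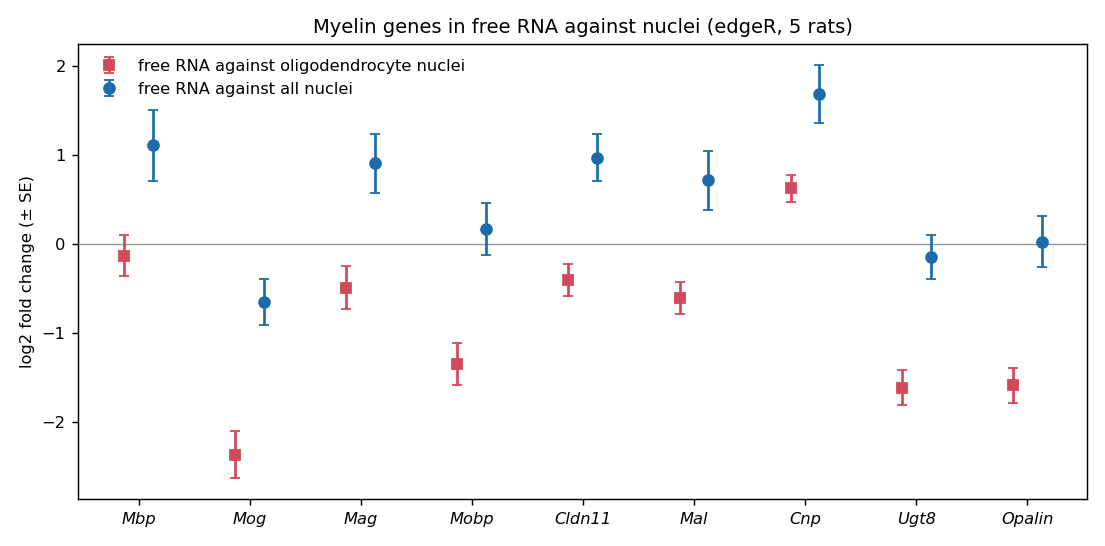
Log2 fold change (± SE, edgeR, 5 rats) of each gene in free RNA against oligodendrocyte nuclei (squares) and against all barcodes that passed the filters (circles). *Cnp* was above 0 in both, at 0.63 and 1.69, and *Mog* below 0 in both, at -2.37 and -0.65.

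The other pathway genes differed in the same comparisons. Of 42 tested, 5 were higher and 27 lower in free RNA than in oligodendrocyte nuclei, beside 46.1% and 31.8% of all genes. Their median log2 fold change was -1.03, against 0.36 for all genes. *Gamt* (1.44), which makes creatine, *Olig1* (0.85) and *Omg* (0.60) were the farthest above. *Anln* (-3.38), *Enpp2* (-2.59) and *Aspa* (-2.42) were the farthest below. Against all barcodes that passed, 16 of 43 were higher and 7 lower, beside 28.9% and 29.7% of all genes. *Gamt* (2.06), *Nkx6-2* (1.73) and *Olig1* (1.69) led those that were higher, and *Anln* (-1.62), *Nkain1* (-1.30) and *Enpp2* (-0.96) led those that were lower.

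Shares among the UMIs of the 9 genes do not depend on how much other RNA a droplet holds. *Mbp* made up 68.8%, 68.3%, 70.7%, 51.4% and 63.5% of them in free RNA of rats 1 to 5, against 47.9%, 51.8%, 59.1%, 47.7% and 47.1% in oligodendrocyte nuclei. The share of *Mbp* was higher in free RNA in 5 of 5 rats, by 13.8 ± 6.58 percentage points (SD, n = 5, exact two-sided permutation test that flips the signs of the differences, p = 0.062, adjusted over the 9 genes 0.0938). With 5 rats 0.062 is the smallest p this test can give, so no gene could pass 0.05. *Cnp* had a share of 7.94% in free RNA and 3.92% in nuclei (means), higher in 5 of 5 rats by 4.02 ± 0.833 points. *Mog* had 3.67% in free RNA and 12.8% in nuclei, lower in 5 of 5 rats with a difference of -9.11 ± 1.57 points. *Mobp*, *Ugt8* and *Opalin* were also lower in 5 of 5 rats, with differences of -4.36, -2.43 and -1.72 points. For these 5 genes the p was again 0.062 (adjusted 0.0938, exact permutation test). *Mag* (-0.023 points), *Cldn11* (0.157) and *Mal* (-0.314) differed by less than their spread between rats. Shares of the 9 genes add up to the whole, so a higher share of 1 gene lowers those of others. The differences are therefore tied to one another and are not separate results. As a level, *Mbp* did not pass between free RNA and oligodendrocyte nuclei in any of 17 settings.

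**Figure D3:**
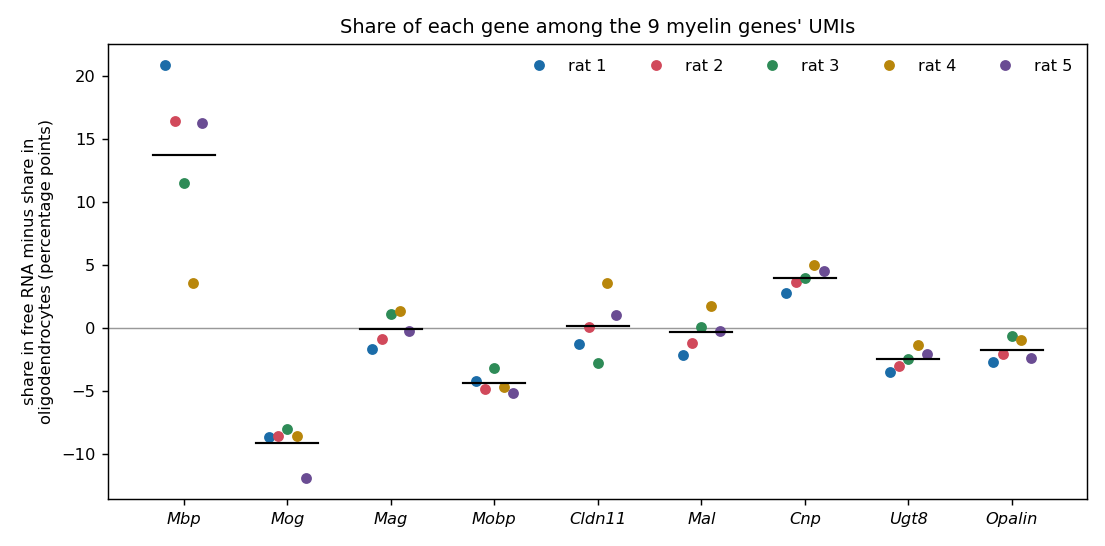
Share of each gene among the UMIs of the 9 genes, free RNA minus oligodendrocyte nuclei (percentage points), 1 point per rat and a black bar for the mean. All 5 rats lie above 0 for *Mbp* (mean 13.8) and *Cnp* (4.02) and below 0 for *Mog*, *Mobp*, *Ugt8* and *Opalin*.

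Nuclei of other types held all 9 genes at lower levels. The summed level fell in the order oligodendrocytes (156), free RNA (123), microglia (61.7 ± 12.4, SD, n = 4), vascular cells (52.2 ± 23.8, n = 4), precursor cells (47.2 ± 15.6, n = 5), astrocytes (39.0 ± 15.6, n = 5) and neurons (12.6 ± 4.74 UMIs per 10000, n = 5). Oligodendrocytes and free RNA overlapped in range, as did microglia, vascular cells, precursor cells and astrocytes with one another. Free RNA (lowest 95.7) did not overlap with microglia (highest 80.2), and astrocytes (lowest 21.6) only just cleared neurons (highest 20.9). Vascular cells of rat 4, at 19.1 UMIs per 10000, lay inside the range of neurons. In neurons the sum was 12.03, 20.9, 11.3, 9.05 and 9.94 UMIs per 10000, with rat 2 highest.

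Set against free RNA of the same rat, the sum of the 9 genes in neurons was 8.36%, 15.02%, 8.57%, 8.88% and 10.4% of its level in rats 1 to 5 (10.2% ± 2.79, SD). It was 9.05% without rat 2. Neurons had the lowest percentage of the 5 types. They were also deeper nuclei, with a median of 6992 UMIs in rat 2 against 1822 in its microglia. Counted per nucleus, neurons of rat 2 held 15.5 UMIs of the 9 genes and microglia 16.9. In rat 1 these values were 9.94 and 25.4, and in rat 4 neurons (8.59) held more than vascular cells (4.39). The part of depth in the order of types was not tested. Single genes in neurons ranged from 8.15% of free RNA (*Cnp*) to 18.5% (*Mog*). Without rat 3 *Mog* in neurons was at 14.9%, below *Ugt8* at 16.05%. The corresponding value of the sum was 32.2% ± 12.2 in astrocytes, 38.1% ± 7.97 in precursor cells, 42.7% ± 16.8 in vascular cells and 52.1% ± 8.73 in microglia. With each nucleus named by its own markers it was 17.7% in precursor cells, 29.4% in microglia and 13.7% in neurons. With unnamed clusters included it was 22.8% in neurons, and in both settings the mean of neurons was still the lowest of the 5 types. In rat 1, with nuclei named by their own markers, neurons stood at 24.5%, above precursor cells (11.7%) and microglia (21.2%). A list of 10 neuron transcripts, among them *Snap25*, *Gad1* and *Th*, gave the reverse view, at 16.3% ± 7.25 of free RNA in oligodendrocytes, 28.5% in precursor cells, 18.9% in astrocytes, 31.5% in microglia and 31.2% in vascular cells. In precursor cells, astrocytes, microglia and vascular cells the mean percentage of the 9 myelin genes lay above that of the neuron transcripts, but not in every rat, since precursor cells of rat 5 stood at 38.7% and 39.0% and vascular cells of rat 4 at 18.8% and 23.6%. With each nucleus named by its own markers the order turned in precursor cells, with 17.7% for the myelin genes and 31.3% for the neuron transcripts and the myelin genes lower in 5 of 5 rats, and in the 2 rats with vascular cells (33.2% and 37.8%). It held in that setting in microglia (29.4% and 26.0%) and astrocytes (33.4% and 30.5%). *Snap25* and *Syt1* of the neuron transcripts were also markers from which clusters were named. The neuron transcripts could enter the clustering, which left the 9 myelin genes out. The lists were thus not treated alike, and their order is a description.

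**Figure D4:**
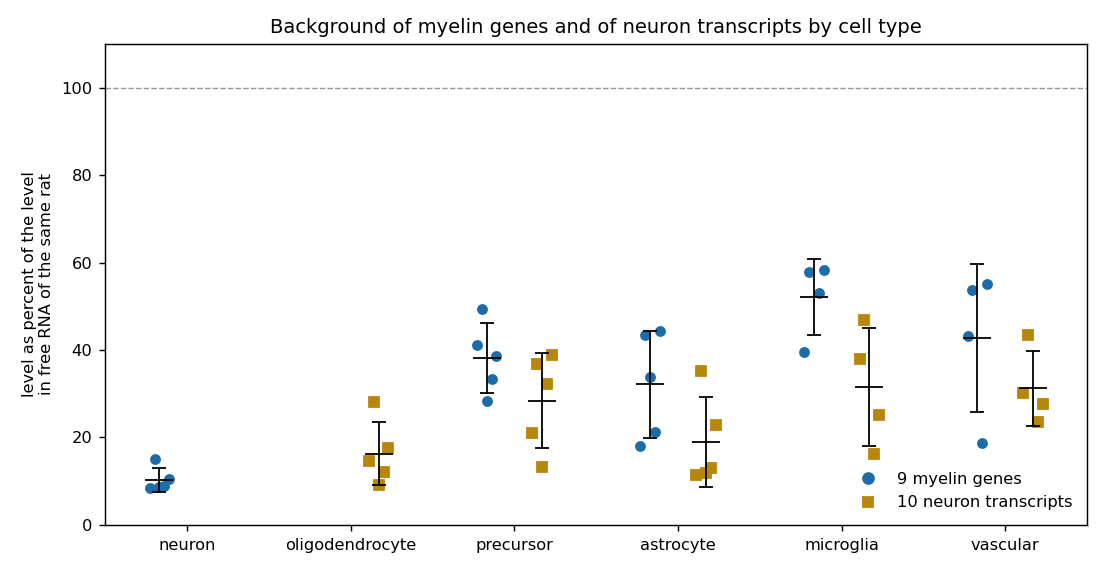
Level of the 9 myelin genes (circles) and of 10 neuron transcripts (squares) in nuclei as a percent of their level in free RNA of the same rat, 1 point per rat with mean ± SD. Neurons lie at 8.36% to 15.02% for myelin genes and microglia at 39.5% to 58.3%. The dashed line marks equal levels.

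Shares of the 9 genes were also compared as profiles. The distance between 2 share profiles was measured as the percentage points that would have to move to turn one into the other. Neurons lay 6.99 points from free RNA and 14.6 from oligodendrocytes (means), nearer to free RNA in 4 of 5 rats, with rat 3 the exception. Vascular cells were at 6.78 and 21.4 points, nearer to free RNA in 4 of 4 rats. Precursor cells were at 9.95 and 15.1 points, and astrocytes at 10.0 and 19.4 points, each nearer to free RNA in 4 of 5 rats with rat 3 again the exception. Microglia were at 9.01 and 12.4 points and nearer to free RNA in 2 of 4 rats. Free RNA itself lay 19.6 points from oligodendrocytes. These distances are a description, and the origin of the UMIs in other types was not tested.

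*Ugt8* stood highest of the 9 genes in precursor cells as a percentage of free RNA. Its level there was 3.63, 3.24, 1.98, 2.53 and 2.41 UMIs per 10000 in rats 1 to 5, which was 122%, 142%, 99.2%, 91.1% and 112% of free RNA (113% ± 19.8, SD). Against ranked barcodes it was 119%, 83.9%, 94.3%, 49.2% and 69.7% (mean 83.2%), and with nuclei named by their own markers 59.6% of free RNA on average, so that a level at or above free RNA depends on both choices. *Ugt8* was the highest of the 9 genes in both settings. As a percentage of oligodendrocytes it did not stand apart, at 39.1% beside 41.4% for *Cnp*, 36.7% for *Mbp* and 34.4% for *Mag*. The other 8 genes stood at 23.2% (*Mal*) to 52.0% (*Mog*) of free RNA in precursor cells, on average over rats. Without rat 3 *Mog* was at 43.5%, below *Mobp* (54.7%) and *Mag* (54.3%). *Ugt8* in neurons was at 17.0% of free RNA and in astrocytes at 46.0%. In microglia *Mog* was at 97.4% ± 25.6, *Opalin* at 85.7% ± 49.04 and *Ugt8* at 82.2% ± 29.8 of free RNA (n = 4), while *Cnp* was at 31.8% ± 7.57. As a percentage of oligodendrocytes the order turned. There *Mog* was the lowest of the 9 genes in microglia at 20.2%, *Opalin* was at 26.9%, *Ugt8* at 28.1% and *Cnp* the highest at 48.6%. These values depend on how nuclei were named, and under their own markers *Mog* was at 24.4%, *Opalin* at 27.0% and *Ugt8* at 39.1% of free RNA in microglia. These 3 genes were also among the 4 farthest below oligodendrocytes in free RNA.

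Few nuclei carried much of the signal in some types. A nucleus was counted as high when its summed level of the 9 genes exceeded the 5th percentile of oligodendrocytes of the same rat. Among precursor cells 8, 60, 51, 13 and 14 nuclei were high, 146 of 1146, and they held 57.8% of the UMIs of the 9 genes in that type (mean over rats). Without them the level in precursor cells was 24.4 in place of 47.2 UMIs per 10000, and 19.9% in place of 38.1% of free RNA. High nuclei numbered 209 of 1250 astrocytes, with 45.3% of the UMIs of the 9 genes, 83 of 536 microglia with 39.7%, 70 of 335 vascular nuclei with 31.3%, and 163 of 6109 neurons with 10.3%. These levels without high nuclei had to be lower, since the choice used the same genes. Rats 2 and 3 supplied most high nuclei. Rat 2 gave 60 of the high precursor nuclei, 119 of the astrocytes, 48 of the microglia and 57 of the vascular nuclei, and rat 3 gave 140 of the neurons, 51 of the precursor nuclei and 57 of the astrocytes. Rat 2 also held the most precursor, astrocyte, microglial and vascular nuclei. High nuclei were 14.0% of its precursor nuclei beside 13.1% in rat 1, and 0.283% of its neurons. They were 18.7% of its astrocytes, 19.7% of its microglia and 29.1% of its vascular nuclei. In rats 1, 4 and 5 these 3 shares were at most 9.80%, 13.2% and 18.2%. The level to exceed was 45.5 UMIs per 10000 in rat 3 against 103 to 107 in the other rats. In rat 3 the level in neurons was 7.69 UMIs per 10000 without high nuclei in place of 11.3, while in the other rats high neurons held 0% to 11.1% of the UMIs of the 9 genes.

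High precursor nuclei were also read for genes outside the 9. Some of these, *Pdgfra* among them, lead the clusters from which precursor nuclei were taken, so the values are a description. *St18*, an oligodendrocyte marker, was at 10.1, 6.66, 4.32, 8.61 and 8.62 UMIs per 10000 in them and at 0.339 to 0.587 in the remaining precursor nuclei. *Pdgfra*, the growth factor receptor that marks precursor cells, was at 0, 1.74, 7.26, 0 and 0.771 UMIs per 10000 in the high nuclei, against 8.78, 7.43, 16.2, 8.06 and 8.98 in the rest, lower in all 5 rats. The list of 5 genes of committed precursors, cells on the way to oligodendrocytes, did not move as one. *Enpp6* was at 6.94, 7.53, 2.93, 11.7 and 8.87 UMIs per 10000 in the high nuclei and at 4.79, 1.71, 0.863, 2.92 and 1.33 in the rest, higher in all 5 rats. *Bcas1* was at 8.09 to 43.2 in the high nuclei and 22.5 to 77.7 in the rest, lower in 4 of 5 rats with rat 3 the exception. *Bmp4* was at 0.116 to 1.67 and 0.549 to 1.48, *Gpr17* at no more than 0.116 and 0.169, and *Neu4* at 0 UMIs in both. Rats 1, 4 and 5 had 8 to 14 such nuclei, so their values rest on few nuclei. The part of doublets, of maturing cells and of free RNA in these nuclei was not tested.

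Nuclei of each type and rat were divided at their median UMI total into shallow and deep ones. In neurons the 9 genes were at 14.8, 24.7, 9.47, 12.7 and 12.3 UMIs per 10000 in shallow nuclei and 10.9, 19.0, 12.1, 7.18 and 8.78 in deep ones. Shallow neurons were higher in 4 of 5 rats, rat 3 being the exception, by 3.21 ± 3.40 (SD, exact sign-flip permutation test p = 0.125, adjusted over 6 types 0.25). Precursor cells went the other way in 5 of 5 rats, with 33.2 in shallow and 54.0 UMIs per 10000 in deep nuclei (difference -20.8 ± 8.41, exact permutation test p = 0.062, adjusted 0.25). Microglia were also lower in shallow nuclei in 4 of 4 rats, with 44.0 against 68.6 UMIs per 10000 (exact permutation test p = 0.125, the smallest that 4 rats allow). In oligodendrocytes shallow and deep nuclei were at 157 and 156 UMIs per 10000, a difference within the spread between rats. Shallow astrocytes were higher in 1 of 5 rats (33.8 against 41.8 UMIs per 10000 in deep ones, exact permutation test p = 0.438) and shallow vascular cells in 2 of 4 (56.6 against 50.3, p = 0.5).

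Oligodendrocytes were clustered again on their own, without the 9 genes, and fell into 5 sub-clusters of 3002, 2885, 1745, 1271 and 946 nuclei, called 0 to 4. *Mal* and *Opalin* split them into 2 sets. *Mal* was at 9.54 and 9.09 UMIs per 10000 in sub-clusters 0 and 1, and at 2.78, 3.13 and 3.26 in sub-clusters 2, 3 and 4. *Opalin* was at 7.91 and 7.62 in sub-clusters 0 and 1, and at 2.61, 2.42 and 1.82 UMIs per 10000 in 2, 3 and 4. *Mbp* stayed between 73.0 and 85.1 and *Mag* between 5.98 and 9.07 UMIs per 10000 across all 5. No test applies to clusters of these nuclei.

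Sub-clusters followed libraries closely. Of sub-cluster 1, 2263 nuclei came from rat 2, as did 1101 of sub-cluster 3, while 1970 of sub-cluster 0 came from rat 4 and all 946 of sub-cluster 4 from rat 3, with a median of 798 UMIs. The split of *Mal* was nevertheless seen inside rats. In rat 4 *Mal* was at 9.26 and 9.22 UMIs per 10000 in sub-clusters 0 and 1 and at 2.63 and 4.70 in 2 and 3, and in rat 2 it was at 8.45 in sub-cluster 1 and 3.05 in sub-cluster 3. *Opalin* in rat 4 was at 7.27 and 4.59 UMIs per 10000 in sub-clusters 0 and 1 and at 2.07 and 1.15 in 2 and 3. *Grm3*, a glutamate receptor, fell from 90.8 and 54.7 UMIs per 10000 in sub-clusters 0 and 1 to 40.6, 21.7 and 29.6, and *Hapln2* was at 3.58 and 3.83 in sub-clusters 0 and 1 and at 6.65, 6.73 and 7.15 in the others. Among leading genes of sub-cluster 1 were *Apoe*, *Gfap*, *Mt3* and the haemoglobin gene *Hba-a1*, which belong to astrocytes and blood, and their part in the levels there was not tested.

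**Figure D5:**
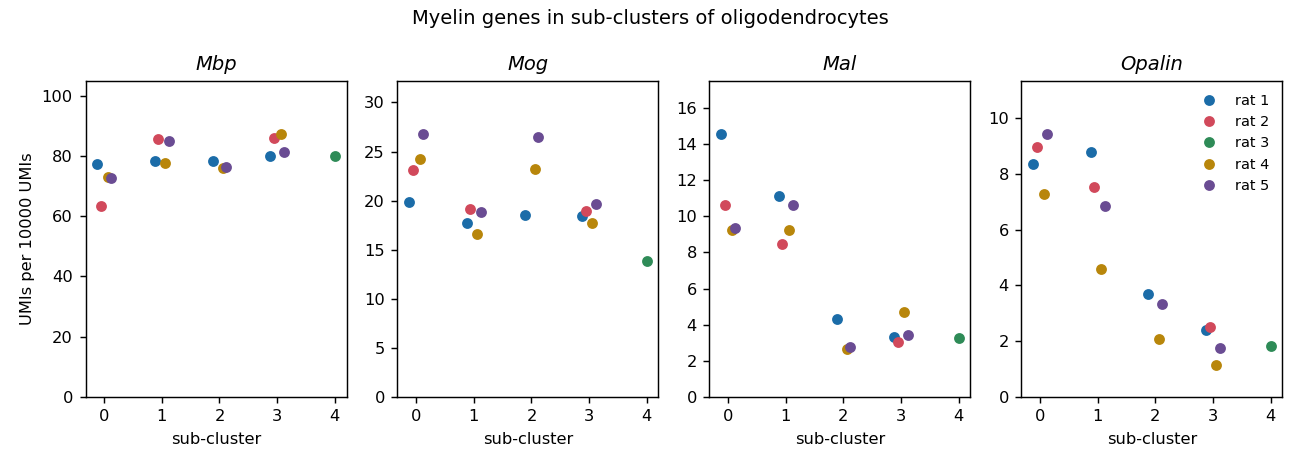
Level (UMIs per 10000 UMIs) of 4 genes in 5 sub-clusters of oligodendrocytes, 1 point per rat with at least 20 nuclei. *Mal* and *Opalin* are high in sub-clusters 0 and 1 and low in 2 to 4, while *Mbp* lies between 63.5 and 87.4 in every rat and sub-cluster.

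The pair also went together from nucleus to nucleus. Across oligodendrocytes of a rat, *Mal* and *Opalin* correlated at 0.256 on average (0.122 to 0.329 in 5 rats), while the other 35 pairs of the 9 genes averaged between -0.032 and 0.141. In rat 3 this pair (0.122) lay below *Mbp* with *Mog* (0.143) and *Cldn11* with *Mal* (0.136). It was the highest in the other rats, in rat 1 only just above *Cldn11* with *Cnp* (0.329 and 0.318). Nuclei of a rat share a library and counts are sparse, so these values are a description.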

How the data were processed

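Nuclei of VTA punches were profiled with the 10x Genomics 3′ assay (v3.1). Per the labels and file headers the authors deposited raw UMI counts per gene and barcode, empty droplets included, made with Cell Ranger (8.0.1 in the submitters' processing notes). The genome build of the counts is not given in the sources used here, so genes were matched by name. None of the corrections in the study's methods (SoupX, SCTransform, integration) had been applied. The 9 genes and all lists were chosen with earlier results of these data known.

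Barcodes with at least 600 UMIs, 201 to 4999 genes and under 5% mitochondrial UMIs were clustered without the 9 genes (scanpy 1.11.5, 2000 variable genes, 30 components, 20 neighbours, Leiden resolution 1). A cluster took the type with the highest marker score, unless fewer than 3 markers were raised or a second score exceeded 0.4 of the first. This rule was set after the data had been seen. *Col1a2*, *Foxj1* and *Qki* were not found by name. Scrublet's own threshold marked only 4 to 13 nuclei per library, so the nuclei with the highest scores were removed, at 0.8% per 1000 nuclei (5 to 401 per library).

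UMIs were summed per rat and type (at least 20 nuclei) and per rat over droplets of 1 to 99 UMIs, and tested with edgeR 4.0.16 (R 4.3.3) with TMM, filterByExpr and the rat as a block. Sums of 1 rat come from the same animal, and their deviations from group means correlated at 0.376 to 0.643 (free RNA and all barcodes) and at 0.247 to 0.766 (cell types and free RNA). P-values of these fits rest on the spread left after each rat's own level is taken out. In the fit with cell types it was estimated over all of them and free RNA, not only over the groups compared. On simulated counts 200 of 11084 genes were changed 3-fold between oligodendrocytes and neurons, and the fit recovered 100% with 1.96% false calls. Between free RNA and nuclei 200 of 13302 were changed, and 96.9% of the 196 tested were recovered with 3.55% false calls. In the data far larger shares were called, 32.1% higher and 33.3% lower against neurons and 28.9% and 29.7% in free RNA against all barcodes. The simulated counts had 1 mean profile for all groups outside the changed genes. They had the same spread for every gene and no effect of the rat, and genes with low counts were not changed. Recovery and false calls at such shares, or with rats that differ, were not tested. Single values were tested over rats by exact permutation, two-sided, flipping the signs of differences (scipy 1.17.1). Alternatives were DESeq2 1.42.0 or its size factors, library totals, no filter, no block, at least 1500 UMIs, doublets or nuclei with 5000 or more genes kept, nuclei named by their own markers, and free RNA from droplets of 1 to 49 UMIs or from barcodes ranked 45001 to 90000 by UMI total. Fits were repeated without each rat. The ranked barcodes, library totals and the treatment of unnamed clusters and high nuclei were added after the data had been seen. Named genes were the 9, up to 3 per direction with the largest fold change from a list of 45 pathway genes (44 found), and the 5 genes most alike (log2 of level with a pseudocount of 1, at least 100 UMIs). *St18*, *Pdgfra*, *Neu4*, *Gpr17*, *Enpp6*, *Bmp4* and *Grm3* were named after their values were seen. A further gene seen in these nuclei is not reported here.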

Additional observations from a re-analysis of the deposited data

Results flagged for a closer look

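A rat was singled out where its gap to the nearest other rat exceeded Dixon's 95% value for the range of its group. Of 70 groups (7 sources by the 9 genes and their sum), 6 held such a rat, and chance gives about 1 in 20. In neurons rat 2 had 14.7 UMIs of *Mbp* per 10000 (next highest 7.27) and 20.9 of the 9 genes summed (next 12.03). Rat 2 also had the highest sum in microglia, 80.2 UMIs per 10000 (next 56.9). *Mog* in astrocytes was at 4.38 UMIs per 10000 in rat 3 (next 1.35). *Mog* in vascular cells was at 0.726 in rat 4, below 1.57 in the next rat, and *Ugt8* in microglia was at 1.25 in rat 1, below 2.16. Rat 2 is the library with 11846 unnamed barcodes, and rat 3 the one with the fewest UMIs per nucleus. Their part in these values was not tested.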

How the results depend on the processing

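Levels of the 9 genes in oligodendrocytes and all 630 values against other types kept direction and call. Of 270 fold changes in free RNA, 215 did. Depth limits rat 3 most, with 797 UMIs per oligodendrocyte (median), and single genes in its rarer types rest on few UMIs. In each comparison of types the share of calls that were higher depended on the scale. It fell from 49.1% to 38.3% (neurons), 47.4% to 33.3% (precursor cells), 48.0% to 35.0% (astrocytes), 54.9% to 32.3% (microglia) and 52.4% to 29.4% (vascular cells) with library totals, and was 40.8% for vascular cells with DESeq2's size factors. It rose to 62.9%, 67.8%, 61.8%, 60.3% and 59.3% in the same order with ranked barcodes as the free RNA of the fit, where 4459 in place of 2416 genes were higher against precursor cells. The cause of the changes listed here was not tested.

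Without the replicate block the genes higher in oligodendrocytes numbered 2339 against neurons, 1292 against precursor cells and 1628 against astrocytes, in place of 3972, 2416 and 2600. The block changed no other count of genes by over 1.5 times, but without it 0 of the 9 genes were higher in free RNA than in oligodendrocytes (1 with it), and 2 were higher and 0 lower than in all barcodes that passed (4 and 1 with it). With library totals the counts were 1580 higher against precursor cells, 1506 higher and 3163 lower against microglia (2450 and 2012 otherwise) and 1496 higher and 3598 lower against vascular cells (2619 and 2375), and 2 of the 9 genes were higher in free RNA than in all barcodes. With nuclei named by their own markers, 1480 genes were higher and 1185 lower against vascular cells, and 0 of the 9 were higher in free RNA than in oligodendrocytes.

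As percent of free RNA, the 9 genes summed came to 13.7% in neurons, 17.7% in precursor cells and 29.4% in microglia with nuclei named by their own markers, to 22.8% in neurons with unnamed clusters included, to 43.2% in microglia with ranked barcodes, and to 19.9% in precursor cells, 19.9% in astrocytes and 38.4% in microglia without high nuclei. Leaving out 1 rat gave 9.05% to 10.7% in neurons, 35.4% to 40.6% in precursor cells, 29.1% to 35.7% in astrocytes, 50.1% to 56.3% in microglia and 38.6% to 50.7% in vascular cells.

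Of the 9 genes 0 were lower in free RNA than in all barcodes (otherwise 1, *Mog*) with DESeq2's size factors, at least 1500 UMIs, droplets of 1 to 49 UMIs or ranked barcodes. Without rats 1, 2, 4 or 5 the number lower was 0, and over the 5 fits without 1 rat it was 0 to 1 and the number higher 2 to 5.

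Against oligodendrocytes the log2 fold change of *Mbp* in free RNA was 0.10 with DESeq2's size factors and 0.10 with DESeq2 (-0.30 to 0.11 without 1 rat), and that of *Mal* 0.0017 with ranked barcodes. Against all barcodes *Ugt8* was at 0.016 with at least 1500 UMIs and 0.39 with ranked barcodes (-0.38 to 0.0059 without 1 rat). *Opalin* was at -0.11 with no filter, -0.16 without the block and -0.13 with library totals. With named clusters only and marked doublets left out it was at -0.051, and without 1 rat at -0.30 to 0.19. *Mobp* was at -0.13 to 0.36 without 1 rat. Shares among the 9 genes changed sign for *Mag* with at least 1500 UMIs (0.108 points), for *Mal* with ranked barcodes (1.56 points), and without 1 rat for *Mag* (-0.381 to 0.372), *Cldn11* (-0.698 to 0.873) and *Mal* (-0.832 to 0.134).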
